A study of Homo sapiens with 4 samples.

Results

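The phagocyte NADPH oxidase genes examined here are CYBB, CYBA, NCF1, NCF4 and RAC2. They were chosen by symbol, after the Ensembl identifiers of the deposited table had been matched to gene names, and make up 5 of its 23622 genes. RNA was sequenced from MV4-11, a human acute myeloid leukemia cell line, in 2 libraries of a control group and 2 libraries of an IRF1 knockdown group. The control libraries carry the label of no treatment and are called sh-NC here, as in the study. The knockdown libraries are called sh-IRF1, and all 4 libraries are labelled with a wild-type genotype. The short hairpins were delivered by a pLKO.1 lentivirus under puromycin selection. The study lists more than 1 hairpin against IRF1, and the hairpin behind each sh-IRF1 library is not given in the sources used here, so both were taken as replicates. Nothing in the labels says that replicates came from separate cultures, and the p-values measure the spread between these libraries, which may be technical.

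CYBB, the catalytic subunit, was the single gene among the 5 to change by more than 0.5 on the log2 scale. Its level in sh-IRF1 was 33.4% of that in sh-NC. The smaller differences of NCF1 and NCF4, which were higher in sh-IRF1, and of RAC2, which was lower, also passed the test. CYBA differed by less than the spread between its control libraries. Outside these 5 genes, the related GTPases RAC1 and RAC3 fell.

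The oxidase of phagocytes moves electrons from NADPH in the cytosol across a membrane to oxygen, which yields superoxide. CYBB (gp91phox) carries the electrons and forms a membrane heterodimer with CYBA (p22phox), and each protein stabilises the other. In resting cells the organiser NCF1 (p47phox) and NCF4 (p40phox) stay in the cytosol. On stimulation NCF1 is phosphorylated, the cytosolic proteins join the membrane pair, and a GTP-bound RAC protein, chiefly RAC2 in neutrophils, completes the active enzyme. Inherited loss of CYBB, CYBA, NCF1 or NCF4 causes chronic granulomatous disease. In myeloid cells the CYBB promoter is known to be bound by PU.1 (encoded by SPI1) together with IRF1 or IRF8.

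Values are normalized counts, which are reads per gene over a size factor for the library, as deposited by the authors. The libraries held between 17635908 and 18695337 reads. Log2 fold changes compare log2(normalized count + 1) between the groups, which makes changes of low genes look smaller. limma tested 14120 genes, those that reached a normalized count of 10 in 2 or more libraries, and all 5 oxidase genes were among them. A gene passed the test at a Benjamini-Hochberg adjusted p under 0.05 and was called when its log2 fold change was also beyond 0.5. The smallest p of an exact two-sided permutation test is 0.333 in this design of 2 against 2, and calls therefore use the spread limma pools across genes. IRF1 itself, the target of the hairpins, had normalized counts of 785 and 738 in sh-NC and 430 and 432 in sh-IRF1 (log2 fold change -0.82, SE 0.090, limma adjusted p = 1.69e-10). Its knockdown left 56.6% of the control level, and other genes overlap 22.9% of the exonic bases of IRF1, so that its reads cannot be assigned with certainty where strand is not known. Among markers of the line, CD33 (1125 to 1190 normalized counts), FLT3 (12634 to 17412) and PTPRC (2239 to 3220) were present in every library. CD68 was at 5.13 to 25.3, with 85.6% of its exonic bases overlapped by other genes. The 9 line markers tested held 1 that passed as higher and 4 that passed as lower in sh-IRF1, beside 20.3% and 21.9% of all genes tested. FLT3 and PTPRC were lower without being called (log2 fold change -0.46 and -0.48, limma adjusted p = 2.75e-19 and 2.15e-12). Of 12 markers of other cell types 4 were in the table. Their summed level was 2256 and 2549 in sh-NC and 4230 and 4126 in sh-IRF1. Most of that difference was PECAM1, which myeloid cells also express and which rose from 1279 ± 170 to 3149 ± 41.0 (SD, n = 2 per group; limma adjusted p = 8.1e-20). NKG7 was at 968 to 1077 and did not pass the test. COL1A1 was at 0 to 4.97. The part of these markers in the results below was not tested.

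Over all 14120 genes, 15.8% were called, 8.27% higher and 7.56% lower in sh-IRF1, and 42.2% passed the test at any fold. Of the 5 oxidase genes 1 was called, lower. At any fold 4 of the 5 passed, NCF1 and NCF4 higher, beside 20.3% of all genes, and CYBB and RAC2 lower, beside 21.9%. The groups did not overlap for 4 of the 5 genes, beside 69.2% of all genes tested. These were the same 2 that were higher, beside 34.2%, and the same 2 that were lower, beside 35%. The 5 had a median log2 fold change of -0.0022, beside -0.0019 over all genes tested.

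CYBB (ENSG00000165168, chrX:37780018-37813461, plus strand, GRCh38) was the lowest of the 5 genes in every library. Its normalized counts were 163 and 147 in sh-NC and 57.7 and 45.9 in sh-IRF1. Behind these values were 159, 143, 58 and 49 reads. Both sh-IRF1 libraries lay below both sh-NC libraries, with no overlap. The means were 155 ± 11.5 and 51.8 ± 8.33 (SD, n = 2 per group), with a log2 fold change of -1.57 (SE 0.224, 95% confidence interval -2.02 to -1.12, limma adjusted p = 9.7e-08). Since RNA was taken from whole cultures, fewer cells with the transcript and less transcript per cell cannot be told apart.

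CYBA (ENSG00000051523, chr16:88643275-88651083, minus strand), whose product is the membrane partner of CYBB, had normalized counts of 9672 and 8594 in sh-NC and 9152 and 9055 in sh-IRF1. The sh-IRF1 values lay between the control values. The log2 fold change was -0.0022 (SE 0.0374, 95% confidence interval -0.079 to 0.074, limma adjusted p = 0.971). The value depended on which control library was used. Without sh-NC replicate 1 it was 0.083 (limma adjusted p = 0.0448), and without sh-NC replicate 2 it was -0.087 (limma adjusted p = 0.0311). The transcripts of the membrane partners therefore stood in another ratio in each group, which restates the fall of CYBB. Per kb of exon, CYBA exceeded CYBB 68.5 and 67.6 times in the sh-NC libraries, and 183 and 228 times in the sh-IRF1 libraries, a ratio 3.02 times as high on average. The size of the ratio depends on the length used, with group means of 128 and 386 on the longest transcript and 364 and 1099 on the canonical transcript. The 3.02 does not, because the lengths cancel in it.

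RefSeq promoter sequences, from 250 bases before to 50 bases after the start, were matched for 3 of the 5 genes, CYBB, NCF1 and CYBA. Those of CYBB and NCF1 are shown because each held both kinds of letters searched for, those of a PU.1-type ETS site (GAGGAA) and of an IRF-type site (GAAANNGAA, where N is any base), on either strand. Capitals mark the matches, and a match on the opposite strand appears as its reverse complement. The searches could overlap, but no match here did. The build is GRCh38.p14 and both sequences run 5′ to 3′ on the plus strand, CYBB at chrX:37779809-37780108 and NCF1 at chr7:74773761-74774060.
CYBB: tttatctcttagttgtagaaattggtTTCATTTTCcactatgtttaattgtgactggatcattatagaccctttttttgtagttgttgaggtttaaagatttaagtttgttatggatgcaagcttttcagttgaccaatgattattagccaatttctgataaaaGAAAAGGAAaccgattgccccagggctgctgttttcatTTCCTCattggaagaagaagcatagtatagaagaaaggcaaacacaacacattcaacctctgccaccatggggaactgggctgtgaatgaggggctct
NCF1: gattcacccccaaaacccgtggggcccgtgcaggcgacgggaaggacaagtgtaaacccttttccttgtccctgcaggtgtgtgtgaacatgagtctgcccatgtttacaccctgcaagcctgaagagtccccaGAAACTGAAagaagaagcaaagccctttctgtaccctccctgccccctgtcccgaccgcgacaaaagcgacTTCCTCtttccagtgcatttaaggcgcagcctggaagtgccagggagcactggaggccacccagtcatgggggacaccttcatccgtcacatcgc
In CYBB the ETS letters lay on the opposite strand at -48 to -43, counted from the RefSeq start. The IRF letters lay on the strand of the gene at -86 to -78 and on the opposite strand at -224 to -216. In NCF1 the ETS letters lay on the opposite strand at -45 to -40, close to their place in CYBB, and the IRF letters on the strand of the gene at -116 to -108. The 300 bases of CYBA (chr16:88651004-88651303, minus strand) held neither. Of all 35116 promoters in the table, 27.9% held the ETS letters, 8.11% the IRF letters and 2.6% both. CYBB, which fell, and NCF1, which was higher in sh-IRF1, thus both belonged to the promoters with both. Of the other oxidase parts with an entry, CYBC1 held neither and NRROS held the IRF letters on the opposite strand at 32 to 40 after the start. A match describes the letters in this window and not a bound site.

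NCF1 (ENSG00000158517, chr7:74774011-74789315, plus strand), the organiser that is phosphorylated on activation, had normalized counts of 750 and 745 in sh-NC and 926 and 879 in sh-IRF1. Both knockdown libraries lay above both controls. The means were 747 ± 3.67 and 902 ± 33.4 (SD, n = 2 per group), with a log2 fold change of 0.27 (SE 0.0759, 95% confidence interval 0.12 to 0.42, limma adjusted p = 0.00303). Without sh-IRF1 replicate 1 it was 0.23 and no longer passed (limma adjusted p = 0.0603).

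NCF1 has a pair of near-identical copies on the same chromosome, the pseudogenes NCF1B (chr7:73220646-73235787, plus strand) and NCF1C (chr7:75156639-75172044, minus strand). The canonical transcript of NCF1 has 1349 bases in GENCODE 44. Aligned with the NCF1C transcript it matched at 99.4% of 1347 paired bases, with 8 mismatches and a gap of 2 bases. With NCF1B it matched at 99.0% of 1167 paired bases, with 12 mismatches and gaps at 90 positions. Of its 1250 windows of 100 bases, 49.3% occur letter for letter in the transcript of at least 1 copy. At a length of 150 bases the share was 32.7%. More of the windows occur in NCF1C (41.6% at 100 bases, 26.6% at 150) than in NCF1B (15.8% and 6.67%). The read length is not given in the sources used here, and the reads of the 3 genes cannot be separated with certainty. The stretch with the gap is shown because a loss of 2 bases here is known to set the classic pseudogene form apart from NCF1. Capitals mark the short repeat in which the difference falls.
NCF1: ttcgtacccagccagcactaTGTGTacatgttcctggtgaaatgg
NCF1B: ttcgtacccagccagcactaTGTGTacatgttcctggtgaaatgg
NCF1C: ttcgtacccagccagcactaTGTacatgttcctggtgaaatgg
The capitals cover 5 bases in NCF1 and in the annotated NCF1B transcript, and 3 bases in NCF1C. This window therefore distinguishes NCF1C but not NCF1B from NCF1 in the reference.

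NCF1B had normalized counts of 667 and 734 in sh-NC and 796 and 882 in sh-IRF1, with a log2 fold change of 0.26 (limma adjusted p = 0.00791). It no longer passed without sh-NC replicate 1 (0.19, limma adjusted p = 0.097) and without sh-IRF1 replicate 2 (0.19, limma adjusted p = 0.177). A second annotated entry overlaps 89.7% of its exonic bases. NCF1C was at 495 and 488 in sh-NC and at 548 and 511 in sh-IRF1, and its log2 fold change of 0.11 did not pass (limma adjusted p = 0.4). The 3 genes summed gave 1912 and 1967 in sh-NC and 2270 and 2271 in sh-IRF1. Fitted as 1 gene, the sum rose by 0.23 on the log2 scale (SE 0.0499, limma adjusted p = 1.94e-04). NCF1 took 39.2% and 37.9% of the sum in sh-NC and 40.8% and 38.7% in sh-IRF1, so the share overlapped between the groups.

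**Figure D1:**
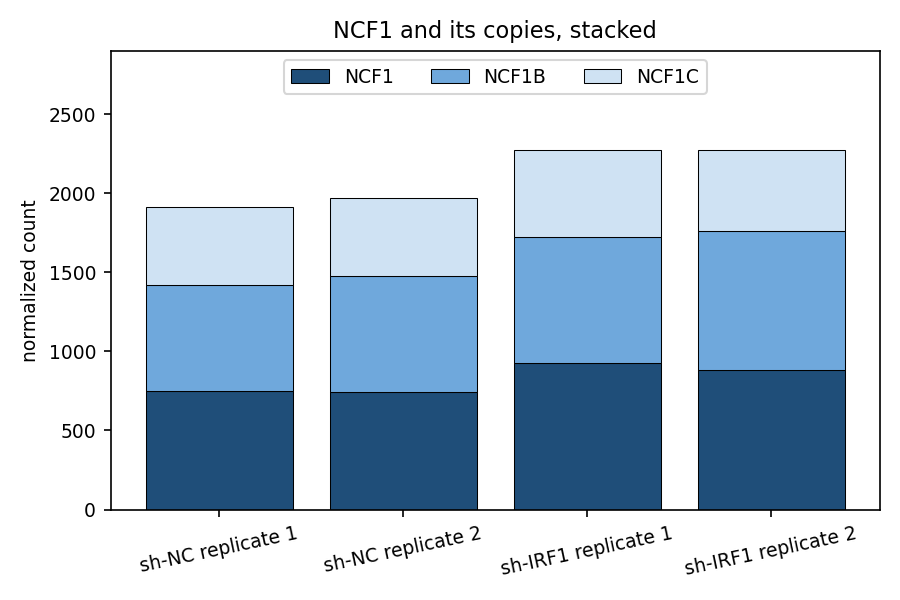
Stacked normalized counts of NCF1, NCF1B and NCF1C in each of the 4 libraries (linear axis from 0). The summed height was 1912 and 1967 in sh-NC and 2270 and 2271 in sh-IRF1, while NCF1 took between 37.9% and 40.8% of it.

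NCF4 (ENSG00000100365, chr22:36860988-36878017, plus strand), whose product binds a phosphoinositide of the phagosome membrane, had normalized counts of 2451 and 2314 in sh-NC and 2781 and 2708 in sh-IRF1. The groups did not overlap, and the means were 2382 ± 96.5 and 2745 ± 51.9 (SD, n = 2 per group). The log2 fold change was 0.20 (SE 0.0469, 95% confidence interval 0.11 to 0.30, limma adjusted p = 3.49e-04), and it passed under every alternative run, between 0.16 and 0.25. NCF4-AS1, an antisense gene, overlaps 1.21% of its exonic bases.

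RAC2 (ENSG00000128340, chr22:37225270-37259594, minus strand), the GTPase of blood cells that switches the complex on, had normalized counts of 7818 and 7813 in sh-NC and 7265 and 7380 in sh-IRF1. The groups did not overlap, although the sh-IRF1 mean was 93.7% of the control mean. The log2 fold change was -0.094 (SE 0.0322, 95% confidence interval -0.16 to -0.029, limma adjusted p = 0.0157). This small difference did not pass with libraries scaled by total reads alone (-0.050, limma adjusted p = 0.22). It also did not pass without sh-IRF1 replicate 1 (-0.083, limma adjusted p = 0.141) or without sh-IRF1 replicate 2 (-0.11, limma adjusted p = 0.0608).

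Levels of different genes were compared as normalized counts per kb of exon, with the union of exons in GENCODE 44 as length. In sh-NC these levels were 2988 ± 1.16 for RAC2, 2195 ± 183 for CYBA, 1064 ± 43.1 for NCF4, 219 ± 1.08 for NCF1 and 32.2 ± 2.39 for CYBB (SD, n = 2). In sh-IRF1 the order was the same, from 2799 ± 30.9 for RAC2 to 10.8 ± 1.73 for CYBB (SD, n = 2). Each neighbouring pair in the order was farther apart than its spread. The order of RAC2 and CYBA turned, however, with the canonical transcript as length, because the exons of CYBA come to 4161 bases and its canonical transcript to 692. On that length CYBA stood at 13198 and RAC2 at 5309 per kb in sh-NC. CYBB was the lowest on every length used.

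RAC1, the widely expressed relative of RAC2, had normalized counts of 6320 and 6083 in sh-NC and 3962 and 3747 in sh-IRF1 (log2 fold change -0.69, SE 0.0381, limma adjusted p = 3.69e-20). RAC3 was at 487 and 497 in sh-NC and at 328 and 314 in sh-IRF1 (log2 fold change -0.62, SE 0.108, limma adjusted p = 5.66e-06). Both were called lower, whereas RAC2 was not called. Per kb of exon, RAC2 made up 73.2% and 73.6% of the 3 RAC genes in sh-NC and 79.8% and 80.9% in sh-IRF1. The share depends on the length used. On the canonical transcript it was 62.4% and 63.0% in sh-NC and 70.8% and 72.3% in sh-IRF1. No window of 100 bases of the RAC2 transcript occurs in the transcripts of RAC1 or RAC3.

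CYBC1, an endoplasmic reticulum protein needed for stable CYBB protein, was at 3199 and 3034 in sh-NC and at 3493 and 3470 in sh-IRF1, and rose by 0.16 on the log2 scale (limma adjusted p = 0.00189). NRROS, which is known to promote the breakdown of CYBB protein, was at 3256 and 3229 in sh-NC and at 3015 and 2974 in sh-IRF1. Its log2 fold change was -0.11 (limma adjusted p = 0.0268), which did not pass with any 1 library left out, with scaling by total reads, or with DESeq2.

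The other NADPH oxidases were low or near the floor of detection. Of 10 listed genes 5 were in the table and 2 were tested. NOX1, a catalytic subunit best known from colon, was at 24.6 and 14.4 in sh-NC and at 22.9 and 30.9 in sh-IRF1, so the groups overlapped (log2 fold change 0.48, 95% confidence interval -0.42 to 1.37, limma adjusted p = 0.414). NOXA1, an activator protein known as a partner of NOX1, was at 54.4 and 47.2 in sh-NC and at 95.5 and 111 in sh-IRF1, and rose by 1.01 on the log2 scale (SE 0.247, limma adjusted p = 7.22e-04). NOX5, a calcium-activated oxidase, had 1 and 1 reads in sh-NC and 2 and 17 in sh-IRF1, and a second annotated entry of the same symbol overlaps 72.1% of its exonic bases. DUOX1, an oxidase of epithelia and thyroid, had 8 and 3 reads in sh-NC and 15 and 8 in sh-IRF1. NOXO1, an organiser related to NCF1, had 0 and 4 reads in sh-NC and 5 and 13 in sh-IRF1, and another gene overlaps 98.8% of its exonic bases. NOX3, NOX4, DUOX2, DUOXA1 and DUOXA2 were not analysed here.

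**Figure D2:**
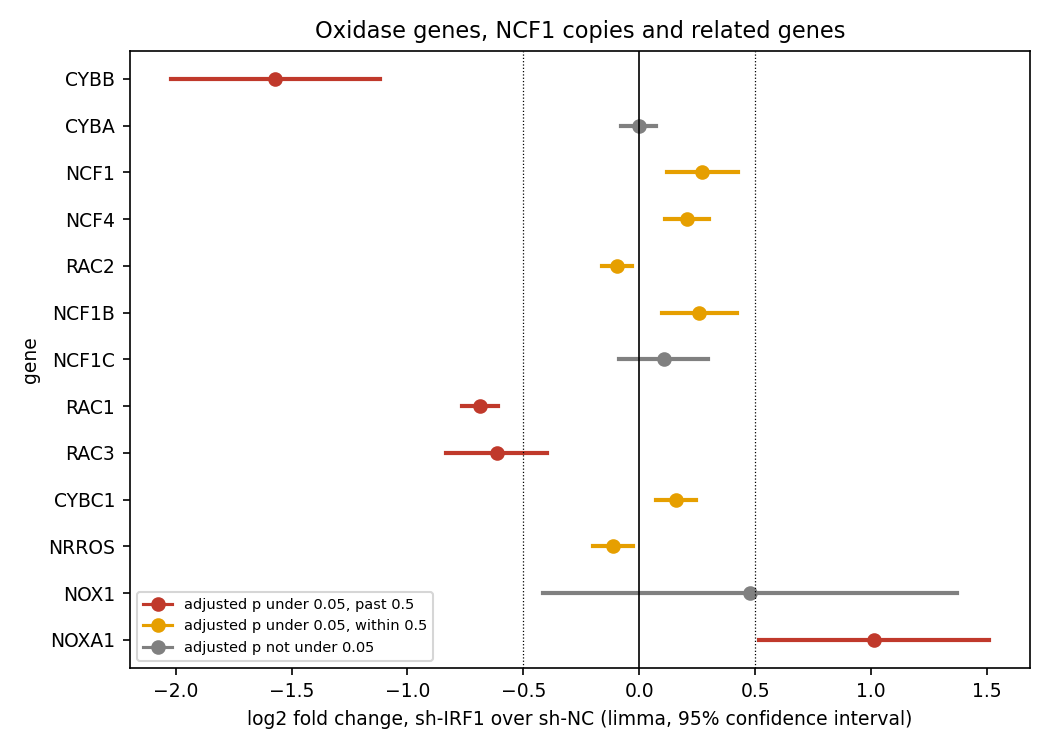
Log2 fold change (sh-IRF1 over sh-NC) with its 95% confidence interval from limma for the 5 oxidase genes, the NCF1 copies, RAC1, RAC3, CYBC1, NRROS, NOX1 and NOXA1 (n = 2 per group; dotted lines at 0.5 in each direction). CYBB lies at -1.57, RAC1 at -0.69, RAC3 at -0.62 and NOXA1 at 1.01, while CYBA, NCF1, NCF4 and RAC2 lie within the dotted lines.

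The genes around the complex moved in both directions. Over 10 lists, which hold the other parts and other oxidases as well, 91 genes were tested, of which 14 were called higher and 13 lower, or 29.7% beside 15.8% of all genes. The median log2 fold change of these 91 was 0.0039. The 13 called lower include S100A9 and FCGR2B, which were kept for testing through the sh-NC libraries alone. They also include CD14, which reached the filter in sh-IRF1 replicate 1 but not in replicate 2, and was thus kept because of the sh-NC libraries. The lists were chosen with earlier results of these data known, and the share is a description only. In the lists that follow, genes pass at any fold, as 20.3% of all genes tested did as higher and 21.9% as lower.

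Among kinases and lipid signals of assembly, 14 genes were tested, 3 passed as higher and 3 as lower, and the median was -0.046. PAK1, a RAC-activated kinase that can phosphorylate NCF1, was at 1290 and 1288 in sh-NC and at 1856 and 1860 in sh-IRF1 (log2 fold change 0.53, limma adjusted p = 8.16e-11). S100A9, which with S100A8 carries arachidonic acid to the complex, was at 30.8 and 21.6 in sh-NC and at 7.96 and 2.81 in sh-IRF1, the last of these from 3 reads. It was kept for testing through the sh-NC libraries alone, where it is high, so no test is given for it, although it is counted among the genes that passed as lower.

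Of 13 RAC exchange factors and inhibitors, 5 passed as higher and 3 as lower, with a median of 0.026. BCR, which turns off RAC as a GTPase-activating protein, was called higher, from 1152 ± 94.0 to 1678 ± 19.8 (SD, n = 2 per group; log2 fold change 0.54, limma adjusted p = 3.83e-10). VAV3, a RAC exchange factor, was called lower, from 688 ± 35.7 to 478 ± 8.62 (SD, n = 2 per group; log2 fold change -0.52, limma adjusted p = 4.96e-06).

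The oxidase moves charge, which channels in the membrane balance. The proton channel HVCN1 had normalized counts of 693 and 602 in sh-NC and 333 and 309 in sh-IRF1, a fall to 49.6% of the control (log2 fold change -1.01, SE 0.103, limma adjusted p = 2.3e-11). The chloride transporter CLCN7 was at 3048 and 3058 in sh-NC and at 4676 and 4608 in sh-IRF1 (log2 fold change 0.60, limma adjusted p = 2.05e-17). CLCN3, its relative, also passed as higher, so the 3 genes of this list did not move one way. HVCN1 and CYBB were thus both called lower.

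Of the upstream receptors 11 were tested, with 5 passing as higher and 4 as lower. The 4 include FCGR2B, at 44.1 and 31.8 in sh-NC and at 7.96 and 8.43 in sh-IRF1. FCGR2B was kept for testing through the sh-NC libraries alone, so no test is given for it. FCGR1A, the high-affinity IgG receptor, was called lower, from 1236 ± 58.5 to 830 ± 13.4 (SD, n = 2 per group; log2 fold change -0.57, limma adjusted p = 1.84e-09), and has near-identical copies that may share its reads. ITGAM, the alpha chain of complement receptor CR3, was called higher, from 142 ± 34.2 to 219 ± 23.6 (SD, n = 2 per group; log2 fold change 0.64, limma adjusted p = 0.0019). The receptor FPR1, whose peptide ligand is a common trigger of the burst, had at most 4 reads in any library.

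Of 7 enzymes tested that supply NADPH, 5 passed as higher, beside 20.3% of all genes, and 1 as lower, beside 21.9%. Their median was 0.34, and 2 were called higher, beside 8.27% of all genes, and 0 lower. Of the 9 enzymes tested that remove superoxide or use peroxide, 1 passed as higher and 2 as lower, and 6 did not pass. MPO, which makes hypochlorous acid from hydrogen peroxide in granules, was at 477 and 443 in sh-NC and at 185 and 158 in sh-IRF1 (log2 fold change -1.42, SE 0.130, limma adjusted p = 7.78e-13).

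Of 15 tested transcription factors of the oxidase genes, 4 passed as higher, 5 passed as lower and 6 did not pass. SPI1, which encodes PU.1, was at 5719 and 5472 in sh-NC and at 6247 and 6376 in sh-IRF1, and rose by 0.17 on the log2 scale (limma adjusted p = 6.46e-05). IRF8 was at 5900 and 5904 in sh-NC and at 5732 and 5823 in sh-IRF1 (log2 fold change -0.031, 95% confidence interval -0.10 to 0.039, limma adjusted p = 0.509). IRF1, which was called lower, is the target of the hairpins. A part of any of these factors in the level of CYBB was not tested. CEBPA, a factor of early granulocyte and monocyte cells, was at 8684 and 8880 in sh-NC and at 8000 and 8235 in sh-IRF1 (log2 fold change -0.11, limma adjusted p = 0.00294). CEBPB, a relative active in monocytes, was called lower, from 3052 ± 57.2 to 1909 ± 4.59 (SD, n = 2 per group; log2 fold change -0.68, limma adjusted p = 1.18e-16). CEBPE, a factor of granulocyte maturation, was at 12.3 and 13.4 in sh-NC and at 9.95 and 8.43 in sh-IRF1. It was kept for testing through the sh-NC libraries alone, so no test is given for it, although it is counted among the 6 that did not pass.

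Genes that rise as monocytic cells mature also split. Of 12 tested, 4 passed as higher and 6 as lower, with a median of -0.18. The 6 include CD14, at 38.0 and 42.1 in sh-NC and at 10.9 and 1.87 in sh-IRF1. It was kept for testing because of the sh-NC libraries, where it is high, so no test is given for it. LYZ, which encodes lysozyme, was called higher, from 1804 ± 27.4 to 3247 ± 40.4 (SD, n = 2 per group; log2 fold change 0.85, limma adjusted p = 3.83e-20). KLF4, a factor of monocyte differentiation, was called lower, from 287 ± 12.8 to 164 ± 21.7 (SD, n = 2 per group; log2 fold change -0.81, limma adjusted p = 1.03e-05). Over 10% of the exonic bases of PAK1, HVCN1, CLCN7, CEBPA, CEBPB and LYZ are shared with other genes, and with the use of strand not given, their reads are uncertain to that extent.

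The genes whose 4 values lay nearest to those of each oxidase gene were sought by the Euclidean distance of log2(normalized count + 1), after each gene's own mean had been taken off. For CYBB these were TCF7L2 (distance 0.080), SERPINE2 (0.12) and PTGES3P1 (0.17). SERPINE2 was low, with a mean normalized count of 18.7 over the 4 libraries, so its likeness to CYBB rests on few reads. For NCF1 they included the unnamed ENSG00000185839 and STK11IP, at 0.012 and 0.015. For NCF4 they were GSTP1, SKP1 and PUDP, at 0.0081 to 0.015. For RAC2 they were SEC61A1, CPSF2 and SERHL2, at 0.0028 to 0.0085. For CYBA they were NAA10, DCAF16 and SLC37A2, at 0.0055 to 0.017. No oxidase gene among the 5 was nearest to another. With 4 libraries, likeness of this kind is shared by many genes and is given as a description.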

How the data were processed

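RNA was extracted with Trizol and libraries were built with a TruSeq RNA kit. The submitters' processing notes name HISAT2 2.0.5 and hg38, and the counting tool, annotation and use of strand are not given in the sources used here. The authors deposited a normalized signal, which is reads per gene over a size factor for the library. Within 0.01 of a read, 100% of the values were whole multiples of the library's step, so the reads were recovered. The table held 0 other columns of per-sample values, and 23456 of 23622 identifiers had a symbol. limma 3.58.1 (R 4.3.3, trend and robust) was fitted to log2(value + 1) of all 14120 genes kept, in place of a count test. edgeR 4.0.16 and DESeq2 1.42.0 were run on the recovered reads as alternatives, edgeR calling 1181 genes higher and 1061 lower. On simulated data with 200 changed genes, limma recovered 200 among the 14064 genes it kept and made 1 false call. DESeq2, run without the filter used for limma, recovered 187 among 23367 genes and made 0 false calls. The changed genes were well expressed, their changes lay well beyond the limit for a call, and the noise setting was the same for all genes. The simulation therefore cannot show how small changes or low genes are recovered. Positions and lengths came from GENCODE 44, promoters from RefSeq. A fold against fewer than 3 reads was not given.

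The genes and lists were chosen with earlier results of these data known. Named were the oxidase genes, the NCF1 copies, other parts and other oxidases, IRF1, SPI1, IRF8, CEBPA and CEBPE, the most significant called gene per direction of every other list (or, with none called, its most significant gene), and the 3 nearest genes of each member. Some genes that this rule selects are not reported here. CLCN3, FPR1, FCGR2B, CD14 and the marker genes were named after their values were seen. Replicates of a group differed by more than sampling noise.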

Additional observations from a re-analysis of the deposited data

How the results depend on the processing

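CYBB and NCF4 kept their direction and passed the test under every alternative run, CYBB between -1.73 and -1.41. With 1 library left out, CYBA ranged from -0.087 to 0.083 with a changed sign, NCF1 from 0.23 to 0.31 and RAC2 from -0.11 to -0.083. With total reads as scaling, RAC2 was -0.050. The median over all genes tested was then 0.043, beside -0.0019 in the main fit, so genes in general moved up under this scaling. Why values changed with 1 library left out was not tested, but each such fit has fewer libraries. At a minimum log2 fold change of 1, 389 genes were called higher and 318 lower, and 2 and 5 in the lists. With no minimum, these were 2861 and 3092 over all genes, 32 and 28 in the lists, and 2 and 2 among the oxidase genes. DESeq2 called 973 higher and 916 lower and gave no adjusted p for 9160 genes.

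With the longest transcript as length, control levels per kb were 4638 for CYBA, 36.2 for CYBB, 317 for NCF1, 1450 for NCF4 and 5309 for RAC2. With the canonical transcript, a choice made after seeing the data, they were 13198, 36.2, 554, 1729 and 5309. The median of superoxide and peroxide removal went from -0.018 to 0.026 with total reads, and that of upstream receptors from 0.060 to -0.087 without a filter, 0.25 with the filter at 50, 0.15 with DESeq2 and 0.21 without sh-NC replicate 1. Replicate numbers did not pair the libraries (r = -0.015 over 14120 genes), and with the replicate block 1174 genes were called higher and 1066 lower, CYBB at -1.57, with no change among the calls of the oxidase genes.

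Low genes such as NOX5 are limited by depth, and 2 libraries per group leave the spread of a single gene poorly known.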
